A study of Populus ussuriensis with 12 samples.

Results

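The genes described here are those whose transcripts were far less abundant in low-nitrogen (low-N) roots than in normal-N roots of Populus ussuriensis, both in plants overexpressing PuHox52 (OE) and in wild type (WT). They number 79 of 34699 gene IDs in the deposited table, or 0.322% of the 24570 IDs with at least 1 FPKM in at least 3 libraries. FPKM is the fragments of a gene scaled to its length and to the mapped fragments of its library. Members had a mean low-N minus normal-N difference of -2 or less on the log2(FPKM + 1) scale in OE and in WT, and an OE minus WT difference under 0.7 in size at normal N. IDs from Potri.013G000100 to Potri.013G032200 were left out by the rule. Because measured values of these 12 libraries chose the members, their low-N responses and their normal-N genotype differences are given as a description, without a test.

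The series holds bulk RNA-seq of roots from poplar plants cloned in vitro and kept for 3 weeks on the treatment medium. The groups are OE at low N, WT at low N, OE at normal N and WT at normal N, with 3 libraries each. All plants had first grown on the same woody plant medium, and the labels give neither the promoter that drives PuHox52 nor the number of transgenic lines. The submitters describe the 3 libraries in each group as biological replicates. The table gives IDs in the Potri format of the P. trichocarpa gene models and does not pair them with names or functions. No gene is therefore given a role here, and the root label could not be checked against marker genes. Fewer cells of a type and less RNA per cell cannot be told apart in bulk samples.

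PuHox52 is a homeodomain-leucine zipper transcription factor known for promoting adventitious root formation in poplar. Roots take up nitrogen mainly as nitrate and ammonium and build it into amino acids through nitrate reductase, nitrite reductase and glutamine synthetase. In plants, transcription of many genes for nitrate uptake, nitrate reduction and the supply of reductant depends on nitrate and declines when it is withdrawn, while a part of the high-affinity uptake system is induced by N shortage.

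Relative depth, inferred from the steps between low FPKM values, was 0.447 to 0.501 in the low-N libraries and 1 to 1.22 in the normal-N libraries, with WT normal-N replicate 1 set to 1. Low values at low N are thus less precise, and the absolute depth is unknown. Libraries came from 2 sequencing companies that the labels do not link to samples, so for any low-N response below, an effect of N supply and one of the sequencing run cannot be told apart. The median response of all tested genes was 0.22 in OE and 0.19 in WT, and after median-of-ratios scaling it was 0.01 in both.

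Outside the chromosome 13 run, 223 genes had a response of -2 or less in OE and 441 in WT. Both conditions were met by 92 genes, which is 41.3% of the OE list and 20.9% of the WT list. Of these, 7 were higher in OE by at least 0.7 at normal N and 6 were lower by at least 0.7, which left the 79 members. The limit runs through a dense part of the distribution. With the weaker of the 2 responses as the measure, 12 members lay between -2.1 and -2, and 22 genes that met the normal-N condition lay between -2 and -1.9. The members nearest the limit had a weaker response of -2.03 and -2.01, and the nearest genes outside it stood at -1.9998 and -1.9959.

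A response of -2 cannot be reached from a low level on the log2(FPKM + 1) scale, so the rule itself favours genes with higher normal-N values. The members' mean over the 6 normal-N libraries ran from 3.67 to 2116 FPKM with a median of 36.8 FPKM, against a median of 8.13 FPKM over all tested genes. At normal N, 25 members had at least 100 FPKM, 46 had 10 to 100 FPKM and 8 had less than 10 FPKM. The 3 most abundant members held 42.1% of the members' summed normal-N FPKM, so sums over members largely follow these.

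**Figure D1:**
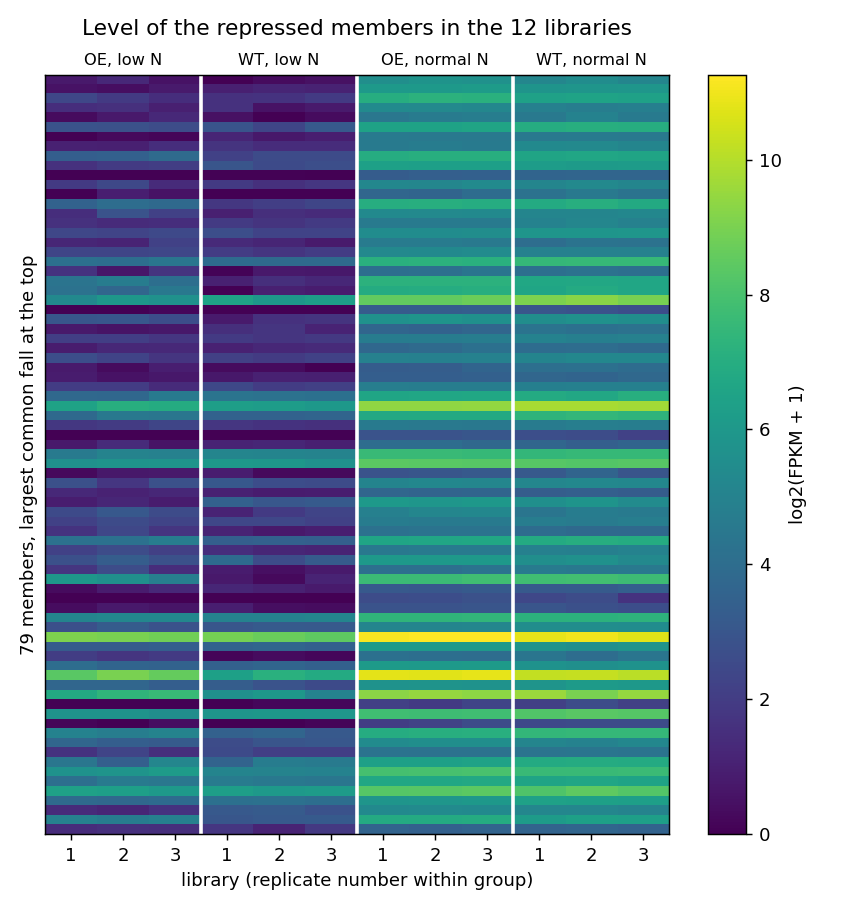
Level of the 79 members (rows) in each of the 12 libraries (columns), as log2(FPKM + 1) by colour, with the libraries grouped as OE low N, WT low N, OE normal N and WT normal N. Rows are ordered by the weaker of the 2 responses, from the largest at the top, and every row is darker in the 6 low-N libraries than in the 6 normal-N libraries.

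At low N, the members' group means had a median of 3.88 FPKM in OE and 2.63 FPKM in WT, against 39.8 FPKM in OE and 35.9 FPKM in WT at normal N. The members together took 0.272%, 0.31% and 0.293% of the summed FPKM of the OE low-N libraries and 0.216%, 0.209% and 0.189% in the WT low-N libraries. At normal N they took 1.68%, 1.72% and 1.74% in OE and 1.62%, 1.6% and 1.59% in WT. The summed member FPKM at low N was 18.4% of the normal-N sum in OE and 12.9% in WT.

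Single members kept between 0% and 25.7% of their normal-N mean FPKM in OE, with a median of 12.4%, and between 0% and 23.1% in WT, with a median of 8.04%. Most stayed detectable: 67 members were above 0 in all 6 low-N libraries, 10 were listed at 0 in 1 to 5 of them, and 2 were listed at 0 in all 6. In 14 members the low-N mean was under 1 FPKM in both genotypes, and in 18 it was at least 10 FPKM in both. The highest low-N library lay below the lowest normal-N library for all 79 members in OE and for all 79 in WT, a separation that follows largely from the rule.

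Potri.006G178200 had the strongest response common to both genotypes among members with at least 10 FPKM at normal N. It had 0.685, 1.46 and 0.453 FPKM in OE at low N, 0, 0.269 and 0.408 FPKM in WT at low N, 46.9, 54.1 and 50.2 FPKM in OE at normal N, and 35.3, 43.4 and 33.7 FPKM in WT at normal N. All 6 low-N libraries were thus near the bottom of the scale. The response was -4.82 in OE and -4.98 in WT on the log2(FPKM + 1) scale. Its low-N means left 1.72% of the normal-N mean in OE and 0.602% in WT.

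Potri.015G029400 came next. Its level was 0.445, 0.316 and 0.763 FPKM in OE at low N and 0.986, 1.21 and 1.13 FPKM in WT at low N. At normal N it was 64.3, 68.1 and 71.5 FPKM in OE and 56.0, 57.2 and 59.0 FPKM in WT. The low-N libraries of each genotype again lay far below its normal-N libraries, with a response of -5.53 in OE and -4.79 in WT.

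The size of the response differed from member to member and between the genotypes. Its median over the 79 members was -2.70 in OE (range -5.53 to -2.03) and -3.02 in WT (range -7.05 to -2.01). After median-of-ratios scaling these medians were -2.89 in OE and -3.20 in WT. A response of -3 or less was reached by 23 members in OE, by 40 in WT and by 18 in both, and one of -4 or less in both by 3. The 2 responses lay within 0.5 of each other in 44 members. They differed by more than 1 in 19 members, with the larger response in OE in 3 and in WT in 16. Across members the responses in OE and in WT, which share no library, had a Pearson r of 0.358 (n = 79 genes, which are not independent replicates), a description limited by the cut at -2 on both axes.

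**Figure D2:**
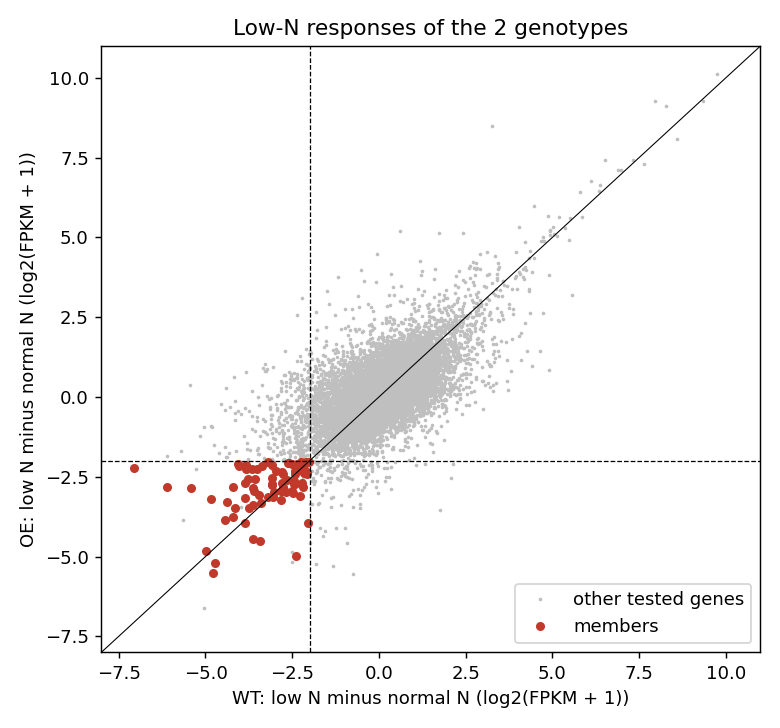
Low-N response in OE (y axis) against that in WT (x axis), both as low N minus normal N of group means on the log2(FPKM + 1) scale, for the tested genes. Dashed lines mark the limit of -2, the solid line equal responses, and red points the 79 members, which extend farther along the WT axis, to -7.05, than along the OE axis, to -5.53.

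The log2(FPKM + 1) scale limits the response of weakly expressed members, since a gene cannot fall below 0 FPKM. The median member had gone 55.1% of the way to 0 FPKM on this scale in OE and 62.8% in WT, and a member that was listed at 0 in all low-N libraries of a genotype had gone 100%.

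The rule was also applied to the libraries of 2 replicate numbers, and the genes it chose were read in the libraries of the third. These sets differ from the 79 members, which all 12 libraries chose. The rule and its limits were set with these data known, so the readings are a description and not a test. Without replicate 1, 2 or 3, the rule chose 90, 85 and 77 genes, of which 77, 73 and 71 were among the 79 members, and 65 members were chosen each time. In the left-out libraries, 65 of 90, 63 of 85 and 63 of 77 genes had a response of -2 or less in both genotypes, against 0.362%, 0.383% and 0.456% of all tested genes. A response of -1 or less in both was seen for 88 of 90, 84 of 85 and 77 of 77 genes. All chosen genes were below 0 in both genotypes in each left-out set. The median left-out response was -2.69, -2.58 and -2.59 in OE and -2.95, -3.08 and -2.90 in WT. The left-out libraries share their N medium and any library batch with the others.

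**Figure D3:**
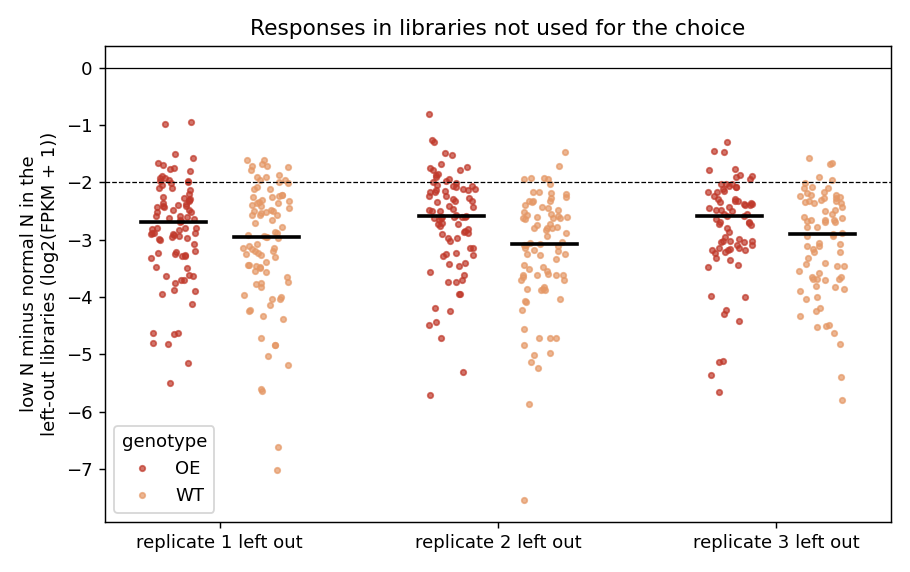
Low-N response in the left-out OE and WT libraries (y axis, log2(FPKM + 1)) of the genes chosen on the other 2 replicate numbers (90, 85 and 77 genes), with 1 point per gene and a bar at the median. The dashed line marks -2, and all points lie below 0, the weakest at -0.81.

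In the genotype difference at normal N, 40 members were higher and 39 lower in OE, with a median of 0.01. Over all tested genes, 34.8% were higher in OE and the median was -0.08. With median-of-ratios scaling, 48 members were higher and 31 lower, and 52.9% of all tested genes were higher. The rule held this difference within 0.7, so the split is a description.

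The rule did not use the difference between OE and WT at low N, which was tested for all 24570 genes with limma (Benjamini-Hochberg adjusted p under 0.05). It did use the same 6 low-N libraries, which bounds this difference and ties it to the 2 responses, so the counts describe the members and are not independent of their choice. Of the 79 members, 45 (57.0%) were called in either direction, against 47.9% of all tested genes. In OE, 32 of 79 members (40.5%) were higher than in WT, against 17.6% of all tested genes, and 13 (16.5%) were lower, against 30.3% of all tested genes. The other 34 did not pass the test. The median difference of the members was 0.14 and that of all tested genes -0.10. With median-of-ratios scaling, 33 members were higher and 8 lower, and over all tested genes 5456 were higher and 5329 lower. With a fit on the 2 low-N groups alone, 23 members were higher and 8 lower, and over all tested genes 3612 were higher and 5996 lower. The main fit shares 1 spread per gene over all groups, and the members spread less at normal N than at low N. Its SE and p for the low-N difference therefore draw in part on the closer normal-N libraries.

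The libraries did not overlap in 28 members with OE above WT (35.4%, against 19.2% of all tested genes) and in 11 with OE below WT (13.9%, against 33.7%). Most called differences were under 1 in size. Of the 32 higher members, 14 differed by at least 1 on the log2(FPKM + 1) scale, and of the 13 lower members, 2 did. The share of all tested genes with such a difference was not counted, so these numbers are not read as a trait of the members. The 32 higher members had a median response of -2.40 in OE and -3.65 in WT, and a median normal-N level of 77.7 FPKM. The 13 lower members had a median response of -3.14 in OE and -2.78 in WT, and a median normal-N level of 55.6 FPKM. The 34 members without a call had -2.71 in OE and -2.51 in WT at a median of 26.5 FPKM. The low-N difference is the OE response minus the WT response plus the normal-N difference. Which genotype had the larger response in the higher and in the lower members thus follows in part from this sorting.

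**Figure D4:**
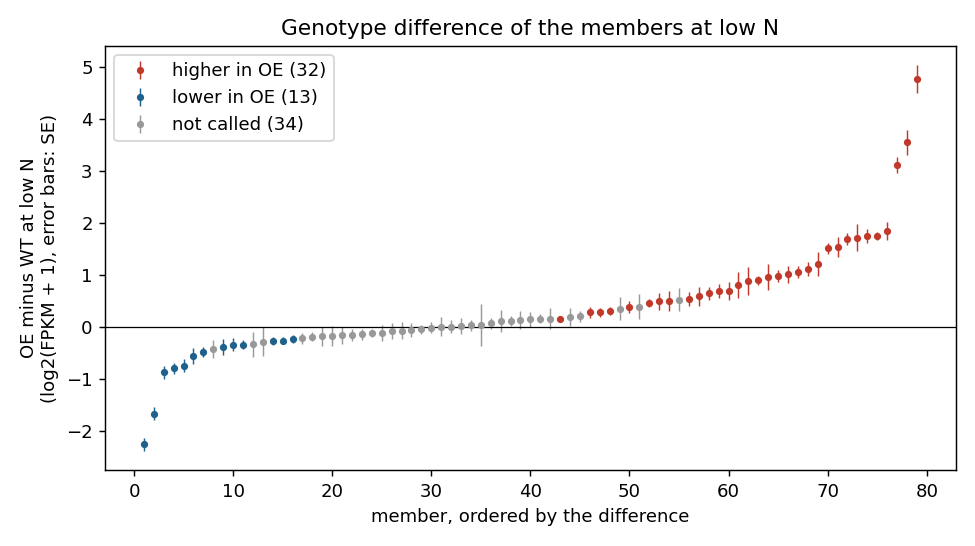
OE minus WT at low N (y axis, log2(FPKM + 1), limma estimate with its SE as error bar) for the 79 members in order of the difference (x axis). Red points are the 32 members called higher in OE, blue points the 13 called lower and grey points the 34 not called; the differences run from -2.26 to 4.76.

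Potri.010G196400 differed most. At low N it had 61.3, 49.9 and 27.3 FPKM in OE and 0.695, 0.217 and 1.17 FPKM in WT. At normal N it had 201.3, 204.9 and 224.0 FPKM in OE and 219.9, 226.1 and 207.7 FPKM in WT. The genotypes overlapped at normal N and were far apart at low N, where the OE libraries themselves ranged more than those of any other group. The low-N difference was 4.76 ± 0.268 (SE; limma adjusted p = 2.12e-07, and 0.000104 in the fit on the 2 low-N groups alone). The response was -2.24 in OE and -7.05 in WT.

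Potri.007G086400 had the next largest difference. Its low-N level was 18.0, 12.3 and 21.6 FPKM in OE and 0, 0.994 and 0.803 FPKM in WT, with 1 WT library listed at 0. Its normal-N level was 120.0, 125.6 and 132.7 FPKM in OE and 97.3, 115.4 and 99.5 FPKM in WT, so the OE libraries also lay above the WT libraries there. The low-N difference was 3.54 ± 0.248 (SE; limma adjusted p = 9.33e-07, and 0.000218 in the fit on the 2 low-N groups alone).

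Potri.017G121800 was the member with the most negative difference. It had 0.846, 1.30 and 0.829 FPKM in OE at low N and 10.3, 7.29 and 8.21 FPKM in WT at low N. At normal N the order was turned, with 64.4, 59.6 and 62.7 FPKM in OE and 48.1, 56.6 and 42.5 FPKM in WT. The low-N difference was -2.26 ± 0.128 (SE; limma adjusted p = 2.3e-08, and 6.42e-05 in the fit on the 2 low-N groups alone). The WT mean at low N was 8.66-fold that of OE.

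Potri.004G089700 was lower in OE at low N as well, with 1.59, 1.29 and 2.16 FPKM in OE and 7.93, 8.43 and 6.20 FPKM in WT. Its normal-N libraries were at 39.0, 41.0 and 39.3 FPKM in OE and 34.8, 35.1 and 31.4 FPKM in WT. The groups did not overlap at either N supply and stood in opposite order. The low-N difference was -1.67 ± 0.118 (SE; limma adjusted p = 1.53e-07, and 0.000266 in the fit on the 2 low-N groups alone).

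Of the members with the strongest common response, Potri.015G029400 was lower in OE at low N. Its difference was -0.49 ± 0.0977 (SE; limma adjusted p = 0.00107, and 0.0382 in the fit on the 2 low-N groups alone). Potri.006G178200 had a difference of 0.58 ± 0.181 (SE; limma adjusted p = 0.0184). Its call was lost in the fit on the 2 groups alone (adjusted p = 0.0845), without WT low-N replicate 1 (0.0779) and without OE low-N replicate 2 (0.0643). Both genes are near 0 FPKM at low N, and with a pseudocount of 0.1 the differences were -1.05 for Potri.015G029400 and 1.72 for Potri.006G178200.

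**Figure D5:**
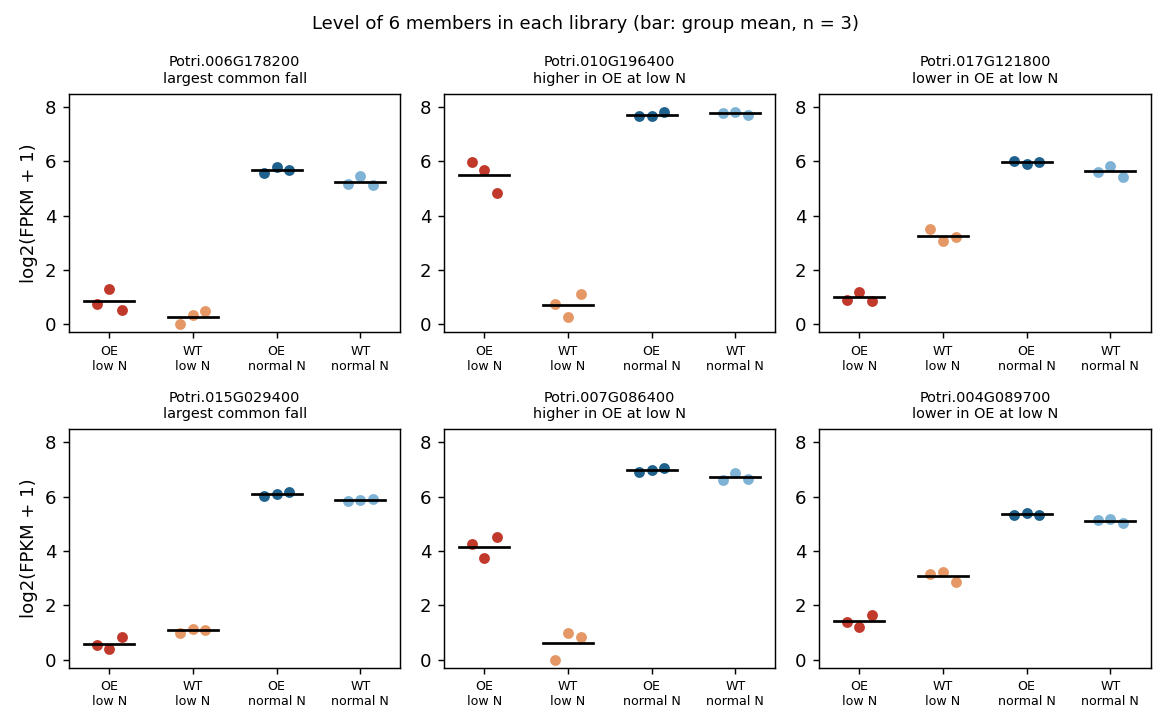
Level of the 6 named members in each library (y axis, log2(FPKM + 1)), with OE left of WT and low N left of normal N and a bar at the mean of each group (n = 3). In the left panels both genotypes lie near 0 at low N, in the middle panels OE lies above WT at low N, and in the right panels OE lies below WT at low N.

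Replicates of the members were closer at normal N than at low N. The median within-group SD of a member on the log2(FPKM + 1) scale was 0.247 in OE and 0.177 in WT at low N, and 0.0643 in OE and 0.076 in WT at normal N. Over all tested genes it was 0.129 in OE and 0.108 in WT at low N, and 0.0768 in OE and 0.0974 in WT at normal N. The low-N libraries are also the shallower ones and the members have low values there; the part of either in this spread was not tested. No low-N library stood apart over the members: its median deviation from its group mean ranged from -0.06 to 0.05.

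In the Potri format the digits after the point give the chromosome. The members lay on all 19 chromosomes, from 1 member on chromosomes 5, 11, 14 and 17 to 8 on chromosomes 7, 10 and 15. As a share of the tested genes, chromosomes 15, 7 and 16 held the most, with 0.888%, 0.819% and 0.785%. Closeness in the order of IDs was only counted, without a comparison to other genes. With a step of at most 3 in the order of tested IDs, 9 members formed 4 runs, of which the longest held 3 on chromosome 18. Those 3 IDs had responses of -3.85 to -2.81 in OE and -4.84 to -4.21 in WT, and 2 of them were called higher in OE at low N. The run that held Potri.010G196400 included 1 more member, with a response of -2.37 in OE and -2.79 in WT, which was also called higher in OE at low N. Reads shared between neighbouring IDs could not be checked.

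The IDs next to members mostly did not share the response. Of the 150 tested IDs that directly adjoined a member without being one, 12 (8%) had a response of -1 or less in both genotypes, against 2.42% of all tested genes. Their median response was 0.12 in OE and 0.10 in WT.

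With the signs of the rule turned, 224 genes had a response of 2 or more in both genotypes at a normal-N genotype difference under 0.7. The larger number of strong increases depended in size on the scaling, with 118 genes meeting the rule and 193 the turned rule under median-of-ratios scaling, and 115 and 181 under quantile normalization.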

How the data were processed

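The authors deposited FPKM values, named as such in the table's title, for each library separately in 1 table. Per the submitters' processing notes, TopHat and DESeq2 were used, with neither a version nor a role. For the genome build, the annotation and the FPKM program, a statement is not given in the sources used here. Columns were assigned by the label in GEO's description field, and 0 other per-sample columns were present.

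Genes reaching 1 FPKM in 3 or more of the 12 libraries were kept, and log2(FPKM + 1), with a pseudocount of 1 FPKM, was fitted with limma 3.58.1 in R 4.3.3 (1 mean per group, 8 residual degrees of freedom, eBayes with trend and robust estimation). Fold changes on this scale understate those of weak genes. The procedure was tested on simulated data. These had normal noise with the same SD in all groups, and held neither the depth difference nor the floor at 0 FPKM. They therefore cannot show how the low-N test behaves for the members, whose replicates spread more at low N. FPKM are not counts, so no count test was run. Relative depth was taken from the most frequent ratio of low values between libraries. For 976 genes below 0.15 FPKM throughout, 100% of values were then whole fragment numbers to within 0.1, against 48.4% with equal depths. These genes overlap those that gave the depths. Each gene was scaled to its own lowest value, which is whole by construction. The shares therefore describe the fit and are not an independent check. Absolute depth is unknown, and no counting interval is given.

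The members, lists and settings were chosen with earlier results of these data known. Without gene names, the lists by function could not be run. Named were the 2 members with the strongest common response at 10 FPKM or more at normal N, and the 2 higher and 2 lower members with the largest called difference at low N, without overlap and with at least 2 FPKM in the higher group. Alternatives were another pseudocount, filters, scalings, limma options, a block for the replicate number, and fits that omit 1 library at a time.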

Additional observations from a re-analysis of the deposited data

How the results depend on the processing

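The number of genes that meet the rule was 79 and changed to 159 with a pseudocount of 0.1, of which 78 were among the 79. With median-of-ratios scaling it was 118, with quantile normalization 115, and it was 79 without a filter, 77 with a filter at 5 FPKM, and 76 to 86 when each library was left out in turn, with 74 to 79 of the 79 members among them. The 32 members higher in OE at low N became 23 to 33 over all alternatives, and 27 to 31 when each library was left out. Over all tested genes the higher count was 4322 in the main fit and 3612 to 5456 over all alternatives. It was 3913 to 4362 when each library was left out. The 13 lower members became 8 with median-of-ratios scaling and 8 in the fit on the 2 groups alone, and 12 to 16 when each library was left out. Over all tested genes the lower count was 7435 in the main fit, 5329 with median-of-ratios scaling and 5996 with the 2 groups alone. Leaving out each library gave 6224 to 7602. The cause of these shifts was not tested. Of the 6 named members, no low-N difference changed sign under the alternatives run. One call was lost, that of Potri.006G178200, under the 3 settings given with its values, and its difference was 0.37 to 0.75 when each library was left out. A pseudocount of 0.1 in place of 1 made the low-N differences of all 6 larger in size. Among them, it gave 5.20 against 3.54 for Potri.007G086400 and 6.00 against 4.76 for Potri.010G196400, and all 6 calls held. Same-numbered libraries of different groups had correlations of their deviations from -0.13 to 0.09, with 0 of 18 pairs over 0.1. With 3 libraries per group, these values cannot settle whether the numbers pair the samples. The main fit took the samples as unpaired. A replicate block gave 32 higher and 12 lower members, and over all tested genes 4257 were higher and 7284 lower. At low N, where the libraries are shallower, 12 members were listed at 0 in at least 1 library. The part of depth in these zeros was not tested. The nitrate uptake list was not run, since no ID has a name here.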
